A study of Mus musculus with 12 samples.

Results

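The genes described here encode the complex that palbociclib binds and the proteins it acts on: the D-type cyclins Ccnd1, Ccnd2 and Ccnd3, their kinases Cdk4 and Cdk6, and the pocket proteins Rb1 (RB), Rbl1 (p107) and Rbl2 (p130). They were taken by symbol as a fixed list, and all 8 were found among the 34678 gene symbols of the tumor tables. Each had 1 entry and was above 0 in all 12 tumors. RNA was sequenced from subcutaneous tumors of the LLC1-shLkb1 line, mouse Lewis lung carcinoma cells carrying a short hairpin RNA against Lkb1 (gene symbol Stk11), so every arm shared the knockdown. The hosts were C57BL/6 mice aged 5 to 8 weeks, of both sexes. The vehicle arm received control immunoglobulin. The second arm was dosed orally with palbociclib at 100 mg/kg on days 1, 2 and 3 of each weekly cycle. The third was injected intraperitoneally with 200 µg of anti-PD-1 per animal on days 1, 3 and 5 of the cycle. The combination arm had both agents. Tumors were taken 2 weeks after treatment, as the paper words it, and the sources used here do not give the day of the cycle. Each of the 4 arms comprised 3 tumors. The sources used here describe the tumors of an arm as replicates and do not say for each RNA sample which animal it came from, so p-values measure the spread between these samples.

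D-type cyclins are made in response to growth signals and activate CDK4 and CDK6, which phosphorylate the pocket proteins. Unphosphorylated RB holds back E2F transcription factors and thereby the genes of DNA replication, whereas p107 and p130 act with E2F4 in the DREAM complex, which silences cell-cycle genes in resting cells. INK4 proteins block the same kinases from within the cell, as palbociclib, an ATP-competitive CDK4/6 inhibitor, does as a drug. Palbociclib acts on the activity of the kinases. RNA levels of the target genes therefore measure how much transcript of the machinery was present and say nothing of its phosphorylation state.

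The values are FPKM, in which the fragments of a gene are divided by its length and by library size, so that levels of different genes can be compared. Depth was estimated from the FPKM worth of 1 fragment in genes with a single annotated transcript and ran from 14872000 to 20273000 fragments per tumor. The arm medians were 15488000 in the vehicle arm, 16214000 in the palbociclib arm, 18531000 in the anti-PD-1 arm and 16204000 in the combination arm. At these depths the least abundant of the 8 genes in FPKM, Rb1, rested on an estimated 229 to 511 fragments per tumor. The lowest single estimate was that of Ccnd3, at 202 to 1089 fragments, and Ccnd1 rested on 2035 to 7682. Stk11 lay between 7.90 and 11.5 FPKM in the 12 tumors, and no tumor without the hairpin was there to compare it with. Of the lung lineage markers, Nkx2-1 and Sftpc were listed at 0 in all 12 tumors and Sftpb did not exceed 0.0944 FPKM. Napsa, a marker of lung adenocarcinoma, was at 1.07 to 2.50 FPKM. Of the epithelial genes, Krt8 was at 62.0 to 276 FPKM, whereas Epcam, Krt18 and Krt19 had medians of 0.162, 0.235 and 0.047 FPKM over the 12 tumors. Several tumors carried RNA of surrounding tissue. The 5 adipocyte markers summed to 808 FPKM in combination replicate 1 and to 336 FPKM in palbociclib replicate 1, while the 6 tumors without palbociclib did not exceed 0.754 FPKM. The sum of 6 muscle markers was 154 in palbociclib replicate 3, 148 in combination replicate 2, 52.9 in vehicle replicate 1 and at most 10.1 in the others, and 6 skin markers summed to 369 in palbociclib replicate 2. The 3 endothelial markers summed to 9.52 to 12.6 FPKM in the 6 palbociclib-treated tumors and 12.3 to 27.2 FPKM in the others, and the 3 fibroblast markers to 17.1 to 120 and 19.0 to 92.9 FPKM. The part of these tissues in the values below was not tested.

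Positions are those of GENCODE M21 on GRCm38, the build that the submitters' processing notes name. On this build Ccnd1 lies on chromosome 7 from 144929931 to 144939925, Ccnd2 on chromosome 6 from 127125162 to 127152193 and Ccnd3 on chromosome 17 from 47505051 to 47599691. Cdk4 lies on chromosome 10 from 127063534 to 127067920 and Cdk6 on chromosome 5 from 3341485 to 3531008. Rb1 lies on chromosome 14 from 73183673 to 73325822, Rbl1 on chromosome 2 from 157145893 to 157204534 and Rbl2 on chromosome 8 from 91070057 to 91123844. Values cover whole genes and do not separate their 3 to 21 annotated transcripts.

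Promoter sequences were taken from RefSeq (GRCm38.p6), which held 5 of the 8 genes (Ccnd3, Cdk4, Cdk6, Rbl1 and Rbl2), each as 250 bases before to 50 bases after an annotated start. Both strands were searched for 3 motifs. These were the E2F letters TTTCCCGC, TTTCGCGC, TTTGCCGC or TTTGGCGC, the E-box CACGTG that MYC and related factors bind, and the CHR element TTTGAA of the DREAM complex. Of all 32851 promoters in the table, 2.26% held an E2F match, 7.15% an E-box and 17.9% a CHR match. Among the 5 genes the E2F letters occurred once, in Rbl1, starting 18 bases before its start. The E-box occurred 4 times in Cdk4 and once in Cdk6, and the CHR letters once in Rbl2. The Rbl1 and Cdk4 promoters are shown because the pocket protein gene with the highest values under palbociclib and the steadiest of the 8 genes differ in these letters. Both runs end at the base before the RefSeq start, read 5′ to 3′ on the gene's strand, and capitals mark the E2F match in Rbl1 and the E-boxes in Cdk4.
Rbl1, chr2:157204535-157204634, minus strand: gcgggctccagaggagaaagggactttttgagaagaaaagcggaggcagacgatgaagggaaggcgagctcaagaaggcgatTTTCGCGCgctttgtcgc
Cdk4, chr10:127063335-127063534, plus strand: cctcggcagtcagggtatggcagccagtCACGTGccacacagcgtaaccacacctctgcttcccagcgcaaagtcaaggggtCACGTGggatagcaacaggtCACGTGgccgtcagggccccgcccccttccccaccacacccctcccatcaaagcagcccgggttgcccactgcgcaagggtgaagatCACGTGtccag
A match is a description of the letters and was not tested as a binding site.

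Ccnd1 and Cdk4 were by far the most abundant transcripts of the complex. Averaged over the 12 tumors, Ccnd1 was at 77.5 FPKM and Cdk4 at 55.5 FPKM, followed by Ccnd2 (24.2), Rbl1 (11.6), Rbl2 (9.81), Cdk6 (6.77), Ccnd3 (5.59) and Rb1 (3.65). The order was the same in the palbociclib, anti-PD-1 and combination arms. With vehicle it differed in 1 place, where the mean of Rbl2 stood before that of Rbl1. Within that arm Rbl2 was the higher in replicate 2 only (14.2 against 8.81 FPKM). Ccnd1 and Cdk4 overlapped between tumors of the vehicle arm and did not in the other 3 arms. In those 3 arms Cdk6 overlapped both Rbl2 and Ccnd3, its neighbours in the order, whereas Rbl2 lay wholly above Ccnd3.

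Each family had an uneven make-up. Ccnd1 supplied 65.6% to 75.9% of the summed FPKM of the 3 D-type cyclin genes, Ccnd2 19.6% to 26.8% and Ccnd3 3.17% to 9.52%. Cdk4 supplied 86.2% to 96.2% of the sum of Cdk4 and Cdk6. Rb1 supplied only 11.6% to 19.3% of the pocket protein sum, the rest being Rbl1 (30.9% to 54.6%) and Rbl2 (33.3% to 49.8%). With vehicle Rbl2 held the larger share on average (43.5%, against 39.2% for Rbl1), which rested on replicate 2 (49.8% against 30.9%). In vehicle replicates 1 and 3 Rbl1 was ahead (44.4% against 40.5% and 42.4% against 40.4%). Rbl1 led on average with palbociclib (49.0% against 37.7%), anti-PD-1 (47.3% against 39.2%) and the combination (49.9% against 36.0%). These are shares of transcript per length and not of protein.

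**Figure D1:**
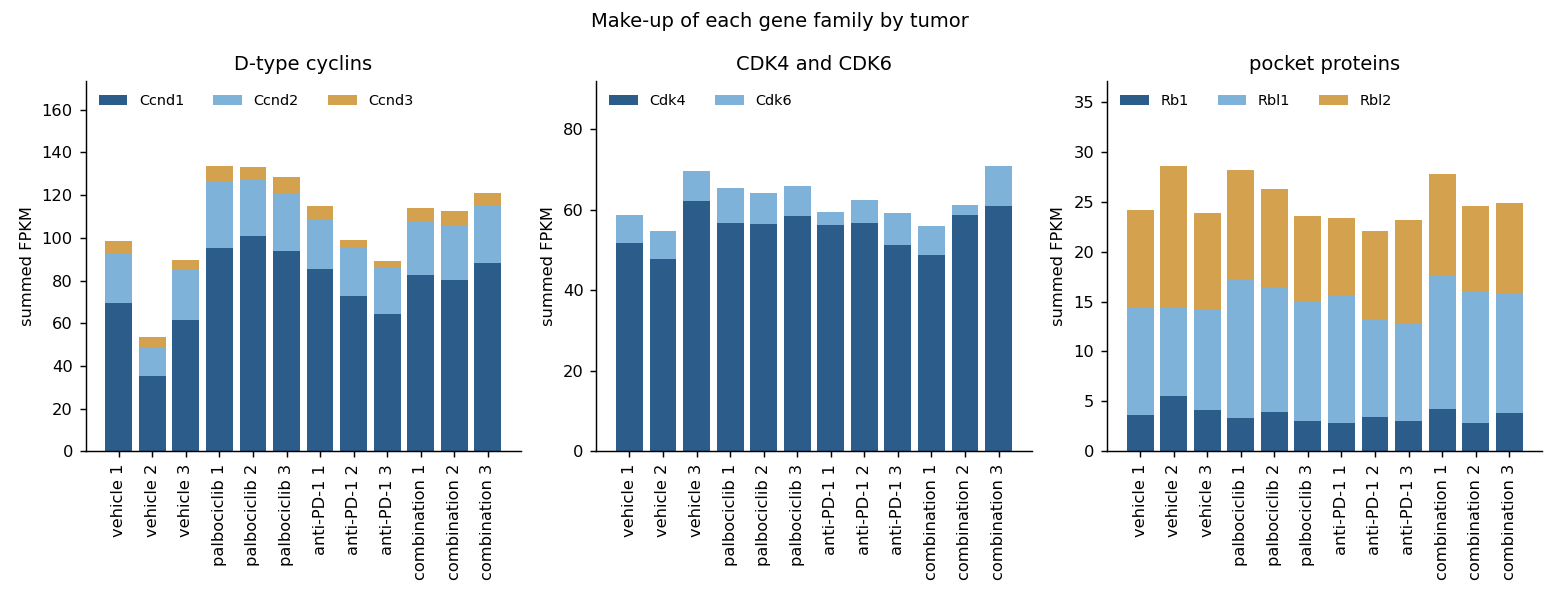
Summed FPKM (y axes) of the D-type cyclin genes, of Cdk4 and Cdk6, and of the pocket protein genes in each of the 12 tumors (x axes), with each stacked colour showing 1 gene. The cyclin bars reach 129 to 133 in the 3 palbociclib tumors and 53.8 in vehicle replicate 2, and the Ccnd1 segment is the largest in every cyclin bar.

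The comparisons below asked whether the target genes themselves differed in expression under treatment. The palbociclib effect averages 2 differences, that of palbociclib from vehicle and that of the combination from anti-PD-1. The anti-PD-1 effect is built in the same way, and the interaction is the palbociclib difference with anti-PD-1 minus that without it. All 3, and each treatment against vehicle, were fitted with limma on log2(FPKM + 0.1) over 15350 genes, with Benjamini-Hochberg adjustment over all of them, and a fold change is on that scale. They use the same 12 tumors and are therefore not independent of each other. Of the 8 genes, 0 had an adjusted p-value under 0.05 (limma) in the palbociclib effect, where 0.313% of all genes tested did. At an unadjusted p under 0.05, 4 of the 8 differed, and all 4 were higher with palbociclib. Over all genes 20.5% passed that unadjusted threshold, 14.1% of all genes as higher and 6.44% as lower. The 4 genes were the 3 D-type cyclins and Rbl1. The median palbociclib effect over the 8 genes was 0.20 on the log2 scale, beside 0.06 over all genes tested.

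**Figure D2:**
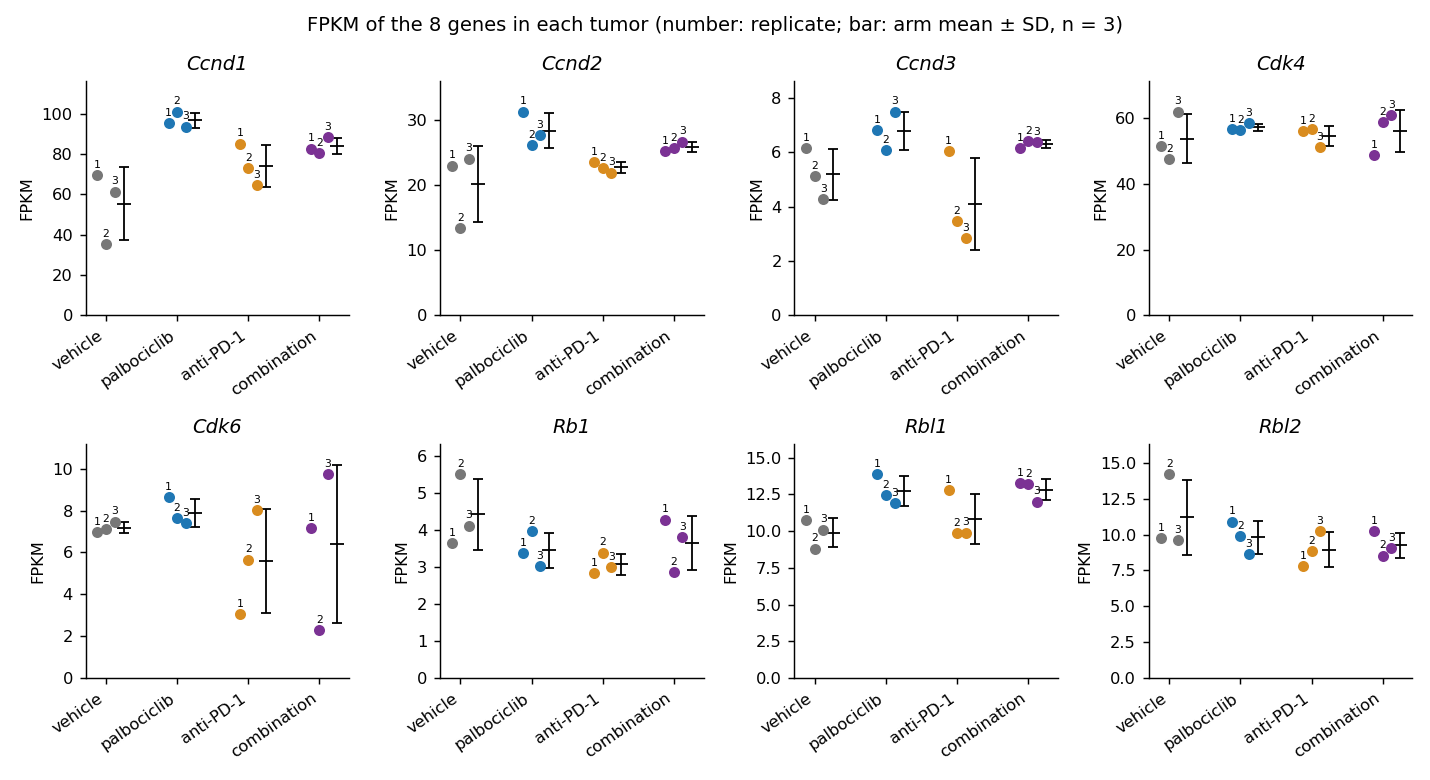
FPKM (y axes) of the 8 genes in the 4 arms (x axes), with 1 point per tumor, its replicate number above it and a bar for the arm mean ± SD (n = 3). All 3 palbociclib tumors lie above all 3 vehicle tumors for Ccnd1, Ccnd2 and Rbl1, whereas Cdk4 stays between 47.7 and 62.1 FPKM throughout.

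Ccnd1 encodes cyclin D1, the D-type cyclin most often amplified in tumors. It was at 69.6, 35.3 and 61.4 FPKM in the vehicle tumors and at 95.4, 101 and 93.7 FPKM in the palbociclib tumors. With anti-PD-1 it was at 85.2, 72.8 and 64.5 FPKM and with the combination at 82.7, 80.4 and 88.3 FPKM. The palbociclib tumors thus lay above every other tumor, vehicle replicate 2 far below every other tumor, and anti-PD-1 replicate 1 within the range of the combination. The arm means were 55.4 ± 17.9 FPKM (SD, n = 3) with vehicle and 96.7 ± 3.85 FPKM (SD, n = 3) with palbociclib, a fitted fold of 1.81 (log2 difference 0.86, standard error 0.21, unadjusted p = 0.00161, adjusted p = 0.151 from limma). The palbociclib effect over all tumors was 0.52 (standard error 0.15, unadjusted p = 0.00446, adjusted p = 0.112 from limma), a fold of 1.44. The combination was at 83.8 ± 4.03 FPKM (SD, n = 3), with a log2 difference from vehicle of 0.65 (standard error 0.21, adjusted p = 0.205 from limma). Vehicle replicate 2 weighed on both differences, which were 0.56 for palbociclib and 0.36 for the combination without it.

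Ccnd2 encodes cyclin D2, which is prominent in lymphocytes and gonadal cells. It was at 22.9, 13.4 and 24 FPKM with vehicle, 31.2, 26.1 and 27.6 FPKM with palbociclib, 23.5, 22.6 and 21.9 FPKM with anti-PD-1 and 25.2, 25.7 and 26.6 FPKM with the combination. All 6 palbociclib-treated tumors (25.2 to 31.2 FPKM) therefore lay above all 6 others (13.4 to 24 FPKM), the one gene of the 8 for which they did. Over all genes tested, 1.02% were separated in this way. Its palbociclib effect was 0.36 (standard error 0.13, unadjusted p = 0.0171, adjusted p = 0.165 from limma), a fold of 1.28. Vehicle replicate 2 carried part of this value, since the effect was 0.23 without it.

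Ccnd3 encodes cyclin D3, which lymphoid precursors depend on. It was at 6.13, 5.12 and 4.28 FPKM with vehicle and 6.79, 6.08 and 7.49 FPKM with palbociclib. The anti-PD-1 tumors were at 6.03, 3.45 and 2.83 FPKM and the combination tumors at 6.14, 6.41 and 6.35 FPKM. The 3 combination tumors were nearly equal and all lay above the anti-PD-1 tumors, of which replicate 1 stood close to them. Of the 8 genes, 2 (Ccnd2 and Ccnd3) had all 3 combination tumors above all 3 anti-PD-1 tumors, as had 11.4% of all genes tested. Its palbociclib effect was 0.54 (standard error 0.16, unadjusted p = 0.00735, adjusted p = 0.125 from limma), a fold of 1.45. Without anti-PD-1 replicate 1 it was 0.69, with an adjusted p of 0.022 from limma, so that this single tumor decided the call.

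The sum of the 3 D-type cyclin genes gives the same picture in 1 value per tumor. It was at 98.7, 53.8 and 89.7 FPKM with vehicle and 133, 133 and 129 FPKM with palbociclib. With anti-PD-1 it was at 115, 98.9 and 89.2 FPKM and with the combination at 114, 113 and 121 FPKM. Relative to its kinase, Ccnd1 was at 1.03 ± 0.306 times the FPKM of Cdk4 with vehicle, 1.69 ± 0.0932 under palbociclib, 1.35 ± 0.141 under anti-PD-1 and 1.503 ± 0.169 for the combination (SD, n = 3 each).

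Because lymphoid and myeloid cells express Ccnd2 and Ccnd3, marker genes of leukocytes were read beside them. Bulk RNA cannot tell fewer cells of a type from less RNA per cell. Of 12 leukocyte markers, 11 passed the filter on low values. Of the 11, 8 had a positive and 3 a negative palbociclib effect, beside 59.8% of all genes above 0. The summed FPKM of the 12 markers ranged from 83.3 to 502 with vehicle, 73.1 to 106 with palbociclib, 92.0 to 260 with anti-PD-1 and 61.2 to 141 with the combination. The highest sum, in vehicle replicate 3, was mostly S100a9 (370 FPKM) and S100a8 (116 FPKM). At an unadjusted p under 0.05, 6 markers were higher and 2 lower, beside 14.1% and 6.44% of all genes, and 0 were called (limma). The neutrophil genes S100a9 and S100a8 were those 2, with palbociclib effects of -2.27 (adjusted p = 0.143) and -1.96 (adjusted p = 0.215, both from limma). The macrophage genes Adgre1 and Csf1r had effects of 1.21 (adjusted p = 0.191) and 1.14 (adjusted p = 0.189, both from limma). The part of these cells in the cyclin values was not tested.

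Cdk4 was the steadiest of the 8 genes. It was at 51.6, 47.7 and 62.1 FPKM with vehicle, 56.7, 56.5 and 58.5 FPKM with palbociclib, 56.2, 56.7 and 51.3 FPKM with anti-PD-1 and 48.9, 58.8 and 61.0 FPKM with the combination. The ranges of the 4 arms overlapped, and the highest tumor was 1.303 times the lowest. The palbociclib effect was 0.07 with a 95% interval of -0.11 to 0.24 (adjusted p = 0.665 from limma). The direction is not settled, because quantile normalization between tumors turned the value to -0.0033.

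Cdk6, the second kinase that palbociclib inhibits, varied most. It was at 6.98, 7.11 and 7.47 FPKM with vehicle and 8.65, 7.64 and 7.40 FPKM with palbociclib, but at 3.07, 5.65 and 8.02 FPKM with anti-PD-1 and 7.18, 2.29 and 9.73 FPKM with the combination. The lowest values belonged to combination replicate 2 and anti-PD-1 replicate 1, and the highest tumor was 4.25 times the lowest. In those 2 tumors Cdk4 was at 58.8 and 56.2 FPKM, within its range elsewhere, so that Cdk4 exceeded Cdk6 25.7-fold and 18.3-fold there, against 6.27- to 10.03-fold in the other 10. The palbociclib effect of 0.10 had a wide 95% interval of -0.60 to 0.80 (adjusted p = 0.883 from limma), and its sign turned when anti-PD-1 replicate 1 (-0.0844) or combination replicate 3 (-0.11) was left out.

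Rb1, whose product must be present for CDK4/6 inhibition to arrest cells, was expressed in every tumor. It was at 3.65, 5.51 and 4.12 FPKM with vehicle, 3.38, 3.97 and 3.02 FPKM with palbociclib, 2.83, 3.39 and 3.00 FPKM with anti-PD-1 and 4.28, 2.86 and 3.81 FPKM with the combination. The 3 anti-PD-1 tumors lay below the 3 vehicle tumors, which held for this gene alone among the 8 and for 7.09% of all genes tested. The difference between anti-PD-1 and vehicle was -0.49 (standard error 0.19, unadjusted p = 0.023, adjusted p = 0.58 from limma), and -0.33 without vehicle replicate 2. Its palbociclib effect was -0.0546 with a 95% interval of -0.35 to 0.24 (adjusted p = 0.841 from limma), and it turned to 0.0279 without vehicle replicate 2 and to 0.0258 without combination replicate 2.

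Rbl1 encodes p107, itself a product of an E2F-regulated gene, and its promoter holds the E2F letters shown above. It was at 10.7, 8.81 and 10.1 FPKM with vehicle, 13.9, 12.4 and 11.9 FPKM with palbociclib, 12.8, 9.84 and 9.89 FPKM with anti-PD-1 and 13.2, 13.2 and 12 FPKM with the combination. All 3 palbociclib tumors lay above the vehicle tumors, as they did for Ccnd1 and Ccnd2, which makes 3 of the 8 genes beside 12.9% of all genes tested. Anti-PD-1 replicate 1 lay among the combination tumors. The palbociclib effect was 0.31 (standard error 0.0868, unadjusted p = 0.00472, adjusted p = 0.112 from limma), a fold of 1.24. Without anti-PD-1 replicate 1 it was 0.37, with an adjusted p of 0.0332 from limma, in the refit that called 758 genes in all.

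Rbl2 encodes p130, the pocket protein of resting cells. It was at 9.77, 14.2 and 9.63 FPKM with vehicle, 10.9, 9.87 and 8.63 FPKM with palbociclib, 7.78, 8.84 and 10.2 FPKM with anti-PD-1 and 10.2, 8.53 and 9.05 FPKM with the combination. Vehicle replicate 2 stood above the other 11 tumors, and the arms otherwise overlapped. Its palbociclib effect was -0.0599 with a 95% interval of -0.32 to 0.20 (adjusted p = 0.792 from limma). The ratio of Rbl1 to Rbl2 was 0.923 ± 0.263 with vehicle, 1.303 ± 0.0651 under palbociclib, 1.24 ± 0.355 under anti-PD-1 and 1.39 ± 0.137 for the combination (SD, n = 3 each). The vehicle tumors were at 1.10, 0.621 and 1.05.

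**Figure D3:**
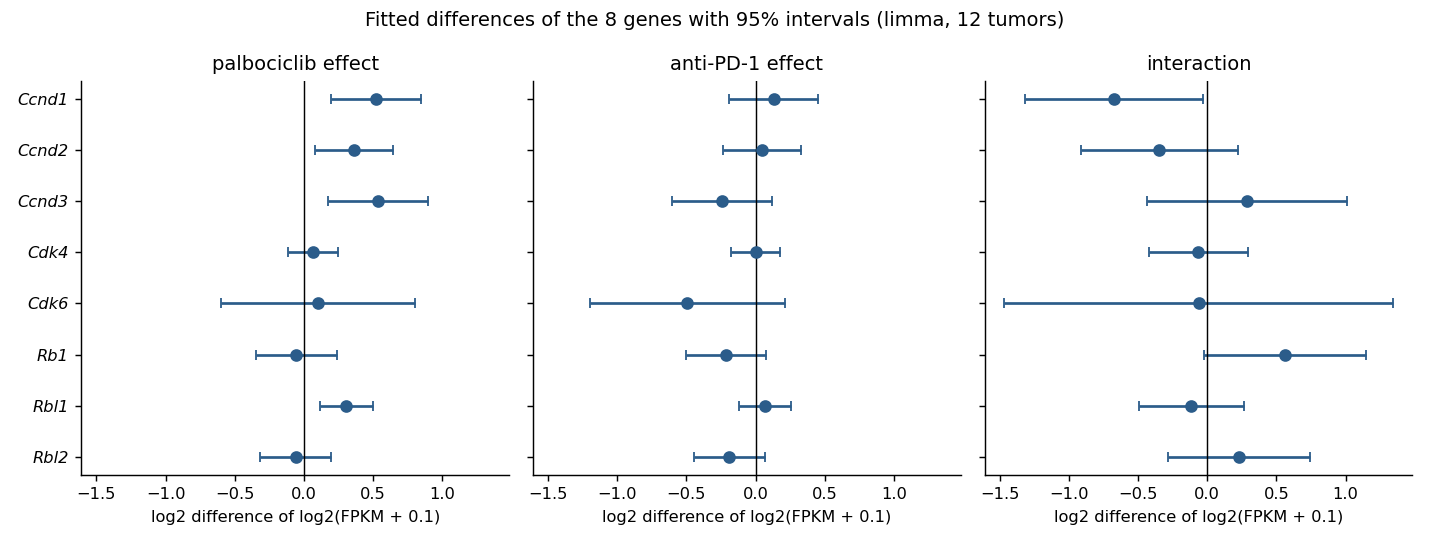
Fitted palbociclib effect, anti-PD-1 effect and interaction (x axes, log2 difference of log2(FPKM + 0.1)) for the 8 genes (y axis), with bars for the 95% interval from limma over 12 tumors. The intervals of Ccnd1, Ccnd2, Ccnd3 and Rbl1 lie above 0 in the palbociclib effect, and those of all 8 genes span 0 in the anti-PD-1 effect.

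In the anti-PD-1 effect 0 of the 8 genes passed the adjusted threshold (limma), with 0% of all genes, and 0 passed an unadjusted p under 0.05, where 6.77% of all genes did. The estimates ran from -0.49 for Cdk6 to 0.13 for Ccnd1. In the interaction 0 of the 8 passed the adjusted threshold, again with 0% of all genes. Ccnd1 was the 1 gene with an unadjusted p under 0.05 there, beside 5.73% of all genes and 3.34% in the same, negative direction (log2 difference -0.68, standard error 0.29, unadjusted p = 0.0416, adjusted p = 0.866 from limma). Without vehicle replicate 2 the interaction was -0.38. Its values behind that estimate were a log2 difference of 0.86 for palbociclib against vehicle and arm means of 74.2 ± 10.4 FPKM with anti-PD-1 and 83.8 ± 4.03 FPKM with the combination (SD, n = 3).

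Against vehicle, none of the 3 treatments gave an adjusted call among the 8 genes (0 of 8 in each, limma), where 0.143% of all genes were called for palbociclib, 0% for anti-PD-1 and 0.013% for the combination. At an unadjusted p under 0.05, palbociclib differed from vehicle in 3 of the 8 (Ccnd1, Ccnd2 and Rbl1), beside 13.8% of all genes, and all 3 were higher, as were 9.43% of all genes. The combination differed in the same 3, beside 17% of all genes, again all higher, beside 8.64%. Both comparisons use the same vehicle tumors. Anti-PD-1 alone differed in 2, Ccnd1 as higher and Rb1 as lower, beside 8.4% of all genes (3.28% higher and 5.11% lower).

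The natural inhibitors of the complex were read next. Of 7 CDK inhibitor genes, 6 passed the filter and 0 were called in the palbociclib effect. The INK4 gene Cdkn2a, which encodes p16 and p19ARF, was the one below the filter, listed at 0 in 4 tumors and at most at 0.215 FPKM. Cdkn2b (p15) did not exceed 0.45 FPKM. The INK4 genes present were Cdkn2d (p19), at 23.1 to 41.3 FPKM, and Cdkn2c (p18), at 15.6 ± 2.71 FPKM with vehicle and 21.5 ± 4.2 FPKM with palbociclib (SD, n = 3). Cdkn2c means were 13.5 ± 0.989 FPKM in the anti-PD-1 arm and 19.9 ± 5.35 FPKM in the combination arm (each SD, n = 3). Taken over all 4 arms, its palbociclib effect came to 0.49 (limma, adjusted p = 0.116, standard error 0.14). Of the CIP/KIP inhibitors, Cdkn1a (p21) had an effect of -0.15 (adjusted p = 0.541 from limma) and Cdkn1b (p27) of -0.36 (adjusted p = 0.396 from limma), and Cdkn1b was highest in vehicle replicate 2, at 19.1 FPKM.

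Downstream of the pocket proteins, E2F-regulated and mitotic transcripts had palbociclib effects above 0 throughout the lists, none of them called. Of 20 E2F target genes, 20 had an effect above 0, as had 59.8% of all genes tested. Their median was 0.27, and 10 had an unadjusted p under 0.05, all as higher, beside 14.1% of all genes. An adjusted p under 0.05 was reached by 0 of them (limma), beside 0.313% of all genes. The same 20 genes were also above 0 in the anti-PD-1 effect, where 40.7% of all genes were, with a median of 0.18 and 6 at an unadjusted p under 0.05 (beside 1.64% of all genes as higher), and in anti-PD-1 minus vehicle, where 44% of all genes were, with a median of 0.27. These contrasts share tumors. The ribonucleotide reductase gene Rrm2 was at 76.3 ± 12.5 FPKM with vehicle, 95 ± 8.93 under palbociclib, 77.8 ± 2.58 under anti-PD-1 and 109 ± 3.79 for the combination (SD, n = 3), a log2 difference of 0.40 (standard error 0.0854, adjusted p = 0.0736 from limma). The replication clamp gene Pcna had an effect of 0.37 (adjusted p = 0.132), the helicase gene Mcm5 of 0.20 (adjusted p = 0.259) and Rrm1 of 0.26 (adjusted p = 0.252, all from limma). Cyclin E1 (Ccne1), chosen after its values were seen, had the largest effect of the list, 0.66. It was at 11 to 11.6 FPKM in the 6 palbociclib-treated tumors and 4.30 to 10.3 FPKM in the others, a separation seen in 1.02% of all genes tested.

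Of 10 G2/M genes, all 10 had an effect above 0, with a median of 0.38, 7 at an unadjusted p under 0.05 and 0 at an adjusted one (limma), beside 59.8% of all genes above 0 and 14.1% higher at an unadjusted p under 0.05. In the anti-PD-1 effect all 10 were above 0 as well, with a median of 0.18 and 0 at an unadjusted p under 0.05 (0 called, limma). Topoisomerase gene Top2a was at 64.7 ± 7.88 FPKM with vehicle and 77.2 ± 3.13 FPKM with palbociclib (SD, n = 3). The proliferation marker Mki67 was at 52.3 ± 9.12 and 60.5 ± 3.82 FPKM (SD, n = 3). Their palbociclib effects were 0.24 for both (adjusted p = 0.179 and 0.299 from limma). Cdc20 had an effect of 0.40 (adjusted p = 0.22) and Ccnb2 of 0.37 (adjusted p = 0.147, both from limma). Anti-PD-1 replicate 1 stood among or above the palbociclib-treated tumors for many of these genes, such as Mki67 (74.7 FPKM, the highest of the 12) and Mcm5 (94.9 FPKM, also the highest). Without this tumor 10 of the 20 E2F target genes and 5 of the 10 G2/M genes had an adjusted p under 0.05 (limma), beside 758 genes in all. Without vehicle replicate 1 these counts were 4 and 2, beside 692 genes in all, and leaving out any other tumor gave 0 in both lists.

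The E2F transcription factors and their DP partners stand between the pocket proteins and these targets. Of 10 E2F and DP genes, 8 had an effect above 0, 4 had an unadjusted p under 0.05, all as higher, and 0 were called (limma). Of all genes tested, 59.8% were above 0 and 14.1% were higher at that p. In the anti-PD-1 effect all 10 were above 0, beside 40.7% of all genes. The abundant E2f4, partner of p107 and p130, was at 99.6 ± 21.3 FPKM with vehicle and 107 ± 5.56 FPKM with palbociclib (SD, n = 3). It was at 120 ± 23.5 FPKM with anti-PD-1 and 118 ± 11.1 FPKM with the combination (SD, n = 3). Over these arms E2f4 had a palbociclib effect of 0.05 (adjusted p = 0.832 from limma). Its dimer partner gene Tfdp1 had an effect of 0.15 (adjusted p = 0.544 from limma). E2f1, the activator held by RB, had arm means of 17.9 ± 1.47 FPKM (vehicle) and 20.2 ± 1.45 FPKM (palbociclib). Means were 17.7 ± 0.729 FPKM in the anti-PD-1 arm and 21.9 ± 0.193 FPKM in the combination arm (each SD, n = 3). The palbociclib effect on E2f1, which averages both differences, came to 0.24 (limma, adjusted p = 0.095, standard error 0.0615). The repressor gene E2f8 had a log2 difference of 0.44 (standard error 0.0994, adjusted p = 0.0804 from limma). It was at 18.8 to 22.1 FPKM in the 6 palbociclib-treated tumors and 10.9 to 18.3 FPKM in the others, a separation seen in 1.02% of all genes tested.

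Among 7 DREAM and MuvB genes, 7 had an effect above 0, 2 had an unadjusted p under 0.05, both higher, and 0 were called (limma), beside 59.8% of all genes above 0 and 14.1% higher at that p. In the anti-PD-1 effect 6 of the 7 were above 0. Mybl2, which replaces p130 on MuvB in cycling cells, had an effect of 0.44 (adjusted p = 0.11 from limma), and the histone-binding subunit gene Rbbp4 of 0.0045 (adjusted p = 0.974 from limma). Foxm1, a factor of mitotic genes, had an effect of 0.22 (adjusted p = 0.343) and the MuvB gene Lin52 of 0.22 (adjusted p = 0.261, both from limma). Of 4 genes next to the complex, Cdk2 and the CDK-activating kinase genes Cdk7, Ccnh and Mnat1, 0 were called. Mnat1 was the one with an unadjusted p under 0.05, at -0.34 (adjusted p = 0.201 from limma). Of 5 genes of cyclin D turnover 0 were called, including Ambra1, the ligase receptor for D-type cyclins, at -0.23 (adjusted p = 0.272 from limma). The other 4 had effects of -0.0105 (Ddb1), -0.0466 (Cul4a), -0.0005 (Cul4b) and 0.0951 (Gsk3b). Of 8 genes that induce cyclin D, 4 had an effect above 0, 4 below 0 and 0 were called (limma). Among them Myc had nearly equal means in the vehicle arm (58.0 ± 27.5 FPKM) and the palbociclib arm (57.5 ± 8.45 FPKM). Its means were 79.2 ± 16.1 FPKM in the anti-PD-1 arm and 54.8 ± 2.05 FPKM in the combination arm (each SD, n = 3). Averaged over both differences, the palbociclib effect on Myc came to -0.22 (limma, adjusted p = 0.522). Among the other inducer genes the effect was 0.0111 for Ctnnb1 and -0.15 for Jun.

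**Figure D4:**
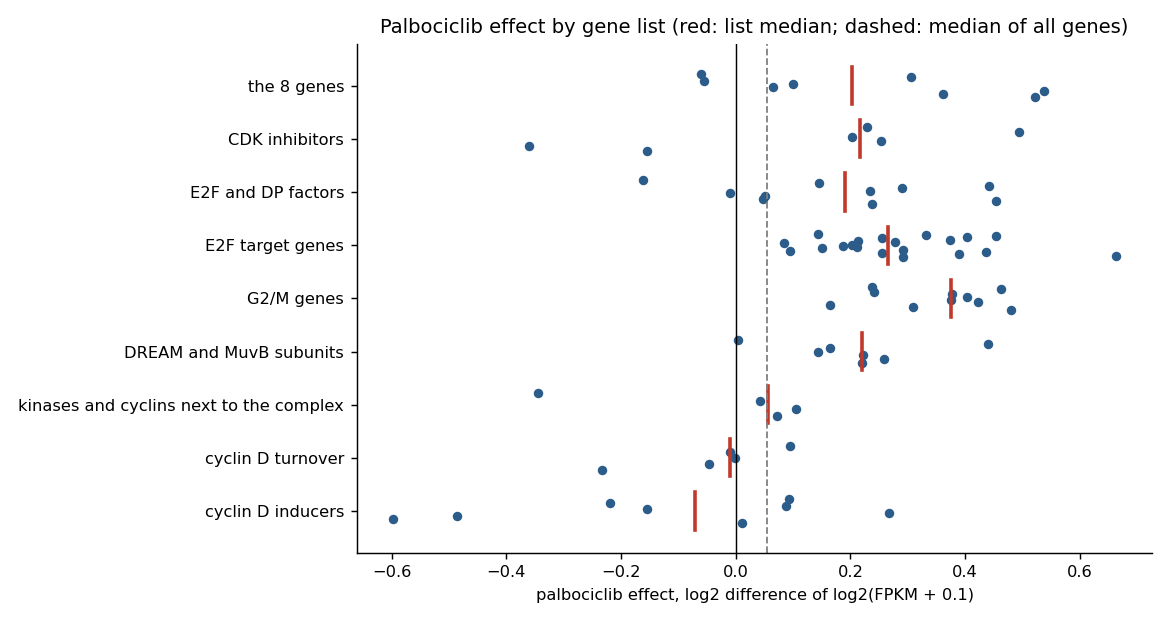
Palbociclib effect (x axis, log2 difference of log2(FPKM + 0.1)) of each gene, by list (y axis), with a red line at the list median and a dashed line at 0.06, the median of all 15350 genes tested. All points of the E2F target and G2/M lists lie to the right of 0, whereas cyclin D turnover and inducer genes fall on both sides.

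How the 8 genes varied with each other over the 12 tumors is described by Pearson's r on log2(FPKM + 0.1) and with no test. The tumors share arms, so r follows differences between the arms as well as within them. Ccnd1 and Ccnd2 went together most closely (r = 0.93), then Ccnd1 and Rbl1 (0.83), Ccnd2 and Rbl1 (0.79), and Rb1 and Rbl2 (0.79). Ccnd1 and Rbl2 were the most opposed pair (r = -0.69). Vehicle replicate 2, with the lowest Ccnd1, Ccnd2 and Rbl1 and the highest Rb1 and Rbl2, weighs on each of these. Among 11186 other genes with a mean of at least 1 FPKM, the 3 most like Ccnd1 were Kdm8, Ptpre and Tmem238 (r = 0.96, 0.95 and 0.95). Ccnd1 itself was the second most like Ccnd2 after Arel1. Those most like Rbl1 were Cep128, Kif14 and Obfc1 (r = 0.96, 0.95 and 0.95), of which Kif14 encodes a mitotic kinesin. Ccnd3 was most like Zeb2os, Suv39h1 and Tmem55b, Rb1 most like Syap1, Gzf1 and Cir1, and Rbl2 most like Dock10, Deptor and Pdpr. The closest genes to Cdk6 were Bcap29, 4632428N05Rik and Tmx2 (r = 0.91, 0.89 and 0.89). Cdk4 had the loosest company, with Yars, Wdr36 and Eif4e2 at r = 0.85, 0.82 and 0.79.

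**Figure D5:**
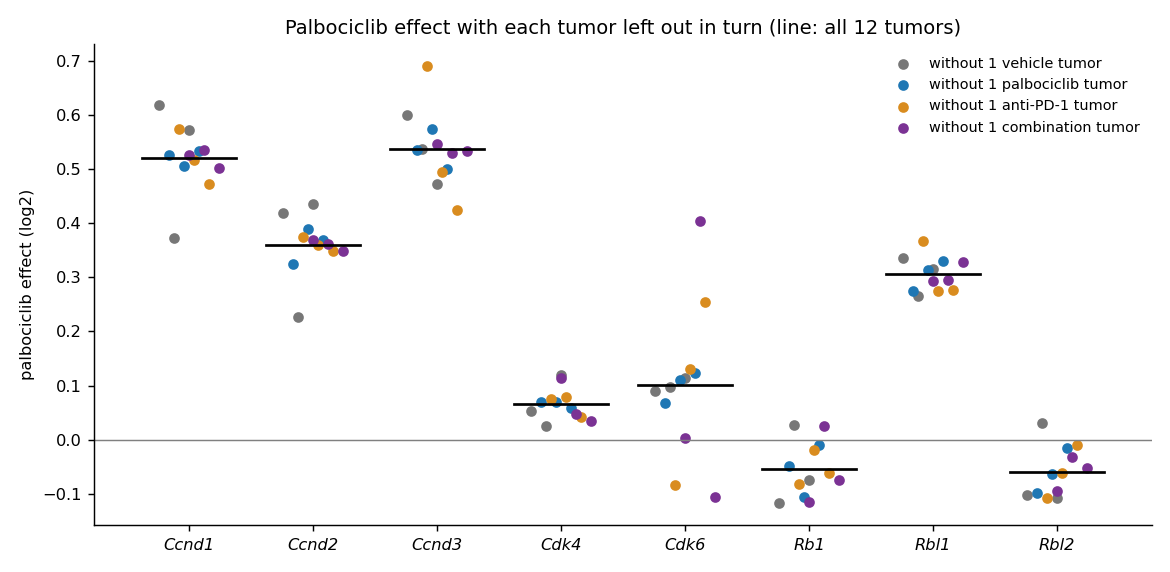
Palbociclib effect (y axis, log2) of the 8 genes (x axis) with all 12 tumors (black line) and with each tumor left out in turn (points, coloured by the arm of the tumor left out). The D-type cyclins and Rbl1 stay above 0 in all 12 refits, from 0.23 for Ccnd2 without vehicle replicate 2 to 0.69 for Ccnd3 without anti-PD-1 replicate 1, whereas Cdk6, Rb1 and Rbl2 cross 0.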

How the data were processed

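Expression came as FPKM, computed and deposited by the authors in a separate table for each tumor (34745 entries). The submitters' processing notes name HISAT2 and the builds GRCm38 and mm10. The counting tool and annotation are not given in the sources used here. Of repeated symbols (67 entries), the one with the highest mean was kept. Gene annotation came from GENCODE M21. The 15350 genes whose FPKM averaged 0.1 or more were fitted as log2(FPKM + 0.1) in limma 3.58.1 (R 4.3.3; 1 mean per arm, eBayes with a trend, Benjamini-Hochberg adjustment, threshold 0.05). The pseudocount lowers fold changes of genes near 0: with 0.01 in its place the median effect stayed at 0.20 for the 8 genes and went from 3.79 to 6.03 for adipocyte markers. The fit was tested on simulated data. Summaries and figures used Python 3.11.15, pandas 2.3.3 and matplotlib 3.10.9.

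The 8 genes and all lists were chosen with earlier results of these data known. Named are the 8 genes, per list the called ones (at most 6) filled up to 4 by mean FPKM, any other genes of lists with 8 or fewer, and the 3 genes most like each of the 8. Lists of surrounding tissue are given as sums only, a departure from that rule, and 1 gene it selects is not reported here.

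Alternatives were pseudocounts of 1 and 0.01, a filter at a mean of 1 or none, TPM, quantile normalization, eBayes without a trend, a replicate block and leaving out each tumor. Of 18 pairs of same-numbered tumors, 7 had deviations from the arm means that correlated above 0.1, as had 9 of 36 other pairs. Whether the numbers pair tumors is not settled by this, and the main fit does not pair them.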

Additional observations from a re-analysis of the deposited data

How the results depend on the processing

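None of the 8 genes passed the adjusted threshold under any of 8 other settings of the fit, and leaving out 1 tumor gave 0 to 2 calls in the palbociclib effect: Ccnd1 without vehicle replicate 1 (0.62, adjusted p = 0.0384 from limma), and Ccnd3 and Rbl1 without anti-PD-1 replicate 1. Over 20 alternatives the effect lay at 0.37 to 0.62 for Ccnd1 (adjusted p 0.0384 to 0.257), 0.23 to 0.44 for Ccnd2 (0.0824 to 0.328), 0.42 to 0.69 for Ccnd3 (0.022 to 0.274) and 0.25 to 0.37 for Rbl1 (0.0332 to 0.259). Signs turned for Cdk4 with quantile normalization (-0.0033), Cdk6 without anti-PD-1 replicate 1 (-0.0844) or combination replicate 3 (-0.11; up to 0.40 with 1 tumor left out), Rb1 without vehicle replicate 2 (0.0279) or combination replicate 2 (0.0258; down to -0.12), and Rbl2 without vehicle replicate 2 (0.0311). The cause was not tested.

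Counts over all genes were less stable. The palbociclib effect had 48 calls, 11 without a filter, 0 without the trend and 0 to 758 with 1 tumor left out (758 without anti-PD-1 replicate 1, 692 without vehicle replicate 1, 264 without combination replicate 2 and at most 10 without any other). Its share of higher calls, 79.2%, was 63.6% after quantile normalization, which moved the median of all genes from 0.06 to -0.027. Palbociclib minus vehicle had 22 calls, 34 with TPM, 1 with quantile normalization, 6 without the trend and 1 to 46 with 1 tumor left out. Combination minus vehicle had 2 calls, 5 with a pseudocount of 0.01, 1 without the trend and 0 to 5 with 1 tumor left out. The anti-PD-1 effect had 0 calls, 1 with a filter at 1, 3 without a filter and 0 to 1 with 1 tumor left out, and anti-PD-1 minus vehicle 0, 1 without a filter and 0 to 1. The interaction had 0 calls, 1 with a pseudocount of 0.01 or TPM, 2 with a filter at 1 or quantile normalization, 7 without a filter and 0 to 3 with 1 tumor left out. With the replicate block the calls were 129 in the palbociclib effect, 51 for palbociclib minus vehicle and 1 for combination minus vehicle, and none of the 8 genes was among them. Same-numbered tumors correlated in their deviations at -0.21 to 0.45 (median 0.0277, 18 pairs), other pairs at -0.35 to 0.31 (median -0.0131, 36 pairs).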

Other observations

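Vehicle replicate 2 had the lowest Ccnd1, Ccnd2 and Rbl1 and the highest Rb1, Rbl2, Cdkn1b (19.1 FPKM) and Cdkn2d (41.3 FPKM) of the 12 tumors. It also had the highest Mnat1 (15.6 FPKM) and Ambra1 (11.9 FPKM). Its depth, 15422000 fragments, was close to that of vehicle replicate 1 (15488000). Chosen after their values were seen, E2f2 (3.42 to 4.79 FPKM against 2.54 to 3.30 FPKM) and Cdk1 (36.1 to 47.0 FPKM against 25.9 to 36.0 FPKM) were, like Ccne1, Rrm2 and E2f8, higher in all 6 palbociclib-treated tumors than in all 6 others, beside 1.02% of all genes tested.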
